A study of Mus musculus with 4 samples.

Results

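The genes examined here encode the core of the death receptor and necroptosis machinery: the death receptor Fas, the adaptor Fadd, the protease Casp8 and its inhibitory relative Cflar, the kinases Ripk1 and Ripk3, and the pore-forming executioner Mlkl. They were taken by symbol, 7 genes of the 24346 listed, and all 7 were among the 12299 whose mean over the libraries reached 0.5 FPKM (fragments mapped to a gene, scaled by its exon length and by sequencing depth) that were tested. They were measured by RNA sequencing of whole liver from male C57BL/6 mice, 8 weeks old when feeding began according to the text of the study. The mice were on a high-fat, high-cholesterol, high-sucrose diet with bile salt (NASH diet). The control group received the NASH diet alone for 3 weeks (n = 2), and the 7KC group received it with 7-ketocholesterol (7KC), an oxidized cholesterol, for the same time (n = 2). No animals on ordinary chow entered the comparison, so every library comes from a liver with diet-induced steatohepatitis, and the labels do not say whether each library is 1 animal. If it is not, p-values measure only the spread between these samples.

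When a ligand engages Fas or the TNF receptor, Fadd recruits Casp8, which can cleave executioner caspases and start apoptosis. Cflar, a Casp8-like protein without protease activity, pairs with Casp8 and restrains it, and the pair also cuts Ripk1 and Ripk3. Where Casp8 activity fails, Ripk1 and Ripk3 join through a shared interaction motif, Ripk3 phosphorylates Mlkl, and Mlkl ruptures the plasma membrane, a lytic death called necroptosis. Hepatocytes are known to be highly sensitive to Fas and to hold little Ripk3, whereas macrophages and other leukocytes express it readily.

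Depth, estimated from the steps between low FPKM values, was 13650000 to 17100000 reads per library, deepest in control replicate 1. The correlation of log2(FPKM + 0.5) across genes, which are not independent replicates, was 0.98 for the control pair, 0.983 for the 7KC pair, and 0.958 to 0.979 between groups. Hepatocyte markers were present in every library, led by Alb at 18988 to 41547 FPKM.

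The largest differences between the diets lay at the end of the pathway. Ripk3 was 2.78-fold and Mlkl 1.73-fold as high in the 7KC group by the ratio of mean FPKM, Casp8 was 1.37-fold and Fas 1.16-fold as high, and Fadd, Cflar and Ripk1 had overlapping libraries. None of the 7 passed limma at an adjusted p under 0.05, where 0.48% of the tested genes were called higher and 0.0244% lower. At a limma unadjusted p under 0.05, 3 of the 7 were higher (Mlkl, Ripk3 and Casp8) and 0 lower, beside 12% of all tested genes higher and 5.81% lower. The 7KC libraries stood above both controls in 4 of the 7 and below both in 0, beside 25.1% and 27.4% of all tested genes. The median log2 change of the 7 genes was 0.21, and that of all tested genes -0.03.

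**Figure D1:**
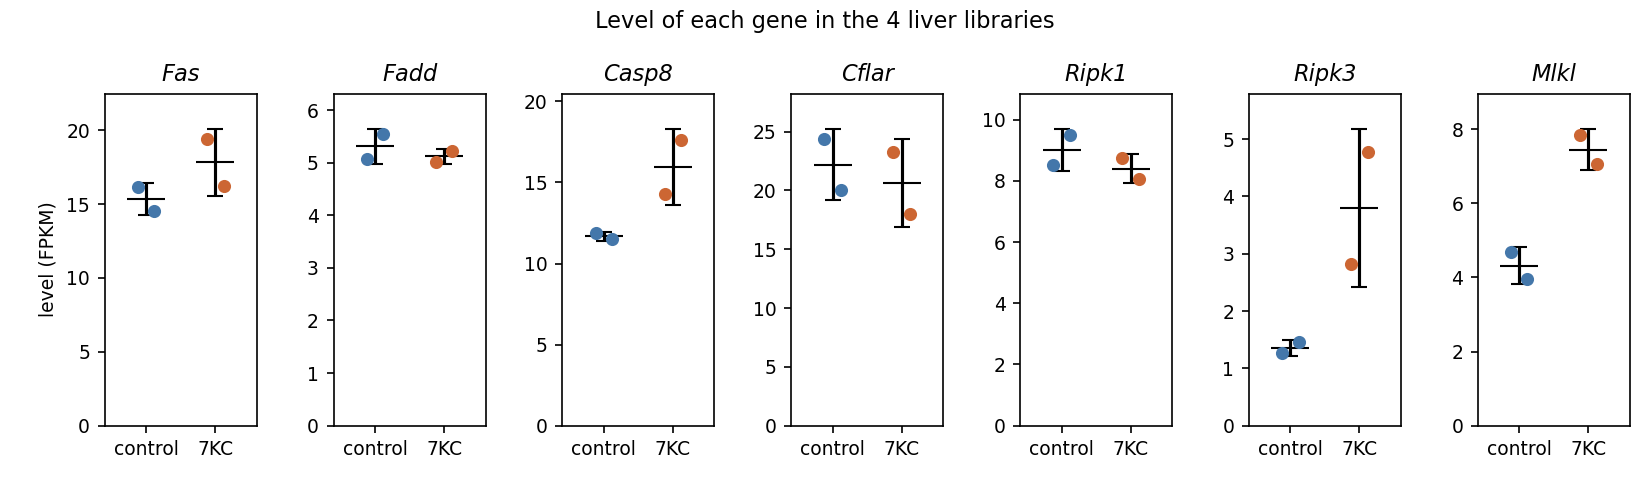
Level of each of the 7 genes in FPKM (vertical axis, from 0) in the 2 control and 2 7KC libraries. Points are libraries, the horizontal mark is the group mean and the bar is the SD. In Ripk3, Mlkl and Casp8 the groups are set apart, and in Fadd, Cflar and Ripk1 they overlap.

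Promoter sequences are shown for the executioner pair, whose levels differed most, and for Fas and Ripk1, whose promoters hold a letter match to the GAS motif found in interferon-responsive promoters. Each runs from 250 bases before to 50 bases after a RefSeq transcript start on GRCm38.p6, and capitals mark motif matches. The motifs searched, on both strands, were the GAS motif (TTCNNNGAA), the tandem motif of interferon regulatory factors (2 copies of GAAA with 2 bases between them) and the NF-κB motif by name.

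Ripk3 (chr14:55788808-55789107, minus strand): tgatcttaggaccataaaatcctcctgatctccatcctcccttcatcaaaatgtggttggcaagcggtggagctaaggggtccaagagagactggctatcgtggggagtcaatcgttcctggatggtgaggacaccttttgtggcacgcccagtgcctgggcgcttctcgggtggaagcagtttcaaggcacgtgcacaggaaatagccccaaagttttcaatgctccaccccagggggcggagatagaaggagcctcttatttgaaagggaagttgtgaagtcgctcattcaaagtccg
Mlkl (chr8:111338156-111338455, minus strand): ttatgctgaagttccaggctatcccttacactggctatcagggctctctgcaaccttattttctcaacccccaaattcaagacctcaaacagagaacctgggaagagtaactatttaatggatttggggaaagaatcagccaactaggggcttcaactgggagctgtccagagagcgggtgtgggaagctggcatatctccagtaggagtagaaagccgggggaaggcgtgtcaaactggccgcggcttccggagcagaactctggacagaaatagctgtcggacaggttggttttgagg
Fas (chr19:34290409-34290708, plus strand): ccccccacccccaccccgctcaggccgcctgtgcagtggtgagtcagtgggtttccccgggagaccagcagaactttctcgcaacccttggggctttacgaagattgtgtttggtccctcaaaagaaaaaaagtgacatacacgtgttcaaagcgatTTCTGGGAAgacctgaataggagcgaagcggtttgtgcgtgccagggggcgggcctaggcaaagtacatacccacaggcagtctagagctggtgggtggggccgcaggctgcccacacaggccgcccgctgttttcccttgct
Ripk1, the second of 2 starts (chr13:34002624-34002923, plus strand): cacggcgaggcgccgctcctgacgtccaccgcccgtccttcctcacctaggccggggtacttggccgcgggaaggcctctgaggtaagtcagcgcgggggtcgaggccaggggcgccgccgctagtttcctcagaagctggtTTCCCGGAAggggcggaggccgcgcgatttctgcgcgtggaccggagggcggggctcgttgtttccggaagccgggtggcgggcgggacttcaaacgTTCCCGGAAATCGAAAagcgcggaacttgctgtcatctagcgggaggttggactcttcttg

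The Ripk3 and Mlkl windows held no match to any of the 3 motifs, and neither did those of Casp8 and Fadd. The Casp8 window (58802252 to 58802551) lies inside the annotated gene, which begins at 58795374, and that annotated start was not searched. Fas had 1 GAS match, TTCTGGGAA, 93 bases before its start. The second Ripk1 start had 2 GAS matches, 108 and 11 bases before the start, and the nearer one overlapped a tandem match, GAAATCGAAA. Cflar had 1 tandem match on the minus strand, written TTTCGGTTTC on the gene's strand, just after its start. Of 11945 such windows of tested genes, 7.16% held the GAS motif, 3.24% the tandem motif and 5.22% the NF-κB motif. The members with a match were therefore Fas, which differed little, and Cflar and Ripk1, whose libraries overlapped. A match is only a run of letters, and a missing one says nothing of sites outside the window.

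Fas, the surface receptor that starts the pathway, lies on the plus strand of chromosome 19 (34290666 to 34327772, mm10). Control replicates 1 and 2 had 16.1 and 14.6 FPKM, and 7KC replicates 1 and 2 had 19.4 and 16.2 FPKM. The lower 7KC library lay only just above the higher control library. The means were 15.3 ± 1.11 and 17.8 ± 2.26 FPKM (SD, n = 2 each), and the log2 change of 0.21 had an SE of 0.14, a 95% interval from -0.14 to 0.55 and a limma adjusted p of 0.472. Without 7KC replicate 1 the change was 0.080, and without 7KC replicate 2 it was 0.33, while without control replicate 2 it was 0.13.

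Fadd, the adaptor that carries Casp8 to the receptor (chromosome 7, 144577318 to 144582463, minus strand), was the steadiest member. Its level was 5.08 and 5.54 FPKM with the NASH diet alone and 5.01 and 5.22 FPKM with 7KC, and the groups overlapped. The log2 change of -0.05 had an SE of 0.12, a 95% interval from -0.36 to 0.26 and a limma adjusted p of 0.871.

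Casp8, the initiator protease (chromosome 1, 58795374 to 58847503, plus strand), measured 11.9 and 11.5 FPKM in control livers and 14.3 and 17.6 FPKM in 7KC livers. Both 7KC libraries were above both controls, and replicate 2 was the higher of them. The means were 11.7 ± 0.257 and 15.9 ± 2.34 FPKM (SD, n = 2 each), and the log2 change was 0.43 (SE 0.14) with a limma adjusted p of 0.215. Without 7KC replicate 2 it was 0.28.

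Cflar, the brake on Casp8, lies on the same strand of chromosome 1 (58711508 to 58758884), 36489 bases before Casp8 with no protein-coding gene between them. It was the most abundant of the 7, with 24.3 and 20.1 FPKM in control livers and 23.3 and 18.02 FPKM in 7KC livers. The spread within each group was larger than the distance between the group means. The log2 change of -0.11 (SE 0.17) had a 95% interval from -0.54 to 0.33 and a limma adjusted p of 0.779.

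Within a library the ratio of Cflar to Casp8 does not depend on how libraries were scaled. It stood at 2.05 and 1.75 in control livers and at 1.63 and 1.02 in 7KC livers. Both 7KC libraries were lower, and in 7KC replicate 2 the brake and the protease stood at nearly equal FPKM. The log2 difference of -0.55 had an exact 2-sided permutation p of 0.333, the smallest that 2 libraries against 2 can give. Without 7KC replicate 2 the difference was -0.22, and without 7KC replicate 1 it was -0.89.

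Ripk1, the kinase that scaffolds survival signaling as well as cell death (chromosome 13, 34002363 to 34037147, plus strand), measured 8.53 and 9.50 FPKM without 7KC and 8.74 and 8.06 FPKM with it. The groups overlapped, and the log2 change of -0.10 (SE 0.12) had a 95% interval from -0.40 to 0.21 and a limma adjusted p of 0.717. Serpinb6a, on the opposite strand, overlaps the annotated Ripk1 gene and was at 15.5 to 25.98 FPKM. The strand setting used for FPKM is not given in the sources used here, so reads in the overlap cannot be assigned with certainty.

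Ripk3, the kinase that commits a cell to necroptosis, is a compact gene (chromosome 14, 55784995 to 55788865, minus strand). It was the least abundant member in both groups, with 1.26 and 1.46 FPKM in control livers and 2.82 and 4.77 FPKM in 7KC livers. The lower 7KC library was still well above both controls, but the 7KC libraries also differed from each other more than the controls did. The means were 1.36 ± 0.140 and 3.80 ± 1.38 FPKM (SD, n = 2 each). The log2 change of 1.17 (SE 0.25) had a 95% interval from 0.53 to 1.81 and a limma adjusted p of 0.107. At the median length of its annotated coding transcripts these levels stand for about 37 and 34 reads in control livers and 65 and 111 in 7KC livers. Counting error alone then gives a coefficient of variation of 9.49% to 17.1%, in each library the largest of the 7.

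Mlkl, the substrate of Ripk3 that breaks the membrane (chromosome 8, 111311797 to 111338177, minus strand), measured 4.67 and 3.96 FPKM in control livers and 7.84 and 7.06 FPKM in 7KC livers. The groups did not overlap and were about equally tight. The means were 4.31 ± 0.503 and 7.45 ± 0.552 FPKM (SD, n = 2 each), and the log2 change of 0.72 (SE 0.14) had a 95% interval from 0.37 to 1.08 and a limma adjusted p of 0.0897. It had the smallest p of the 7, at position 395 among the 12299 tested genes, and it passed the threshold in 1 alternative, with every library scaled to an equal sum of FPKM (adjusted p 0.0419). Over the alternatives that gave values for single genes its adjusted p ranged from 0.0419 to 0.370, and that of Ripk3 from 0.0769 to 0.392.

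**Figure D2:**
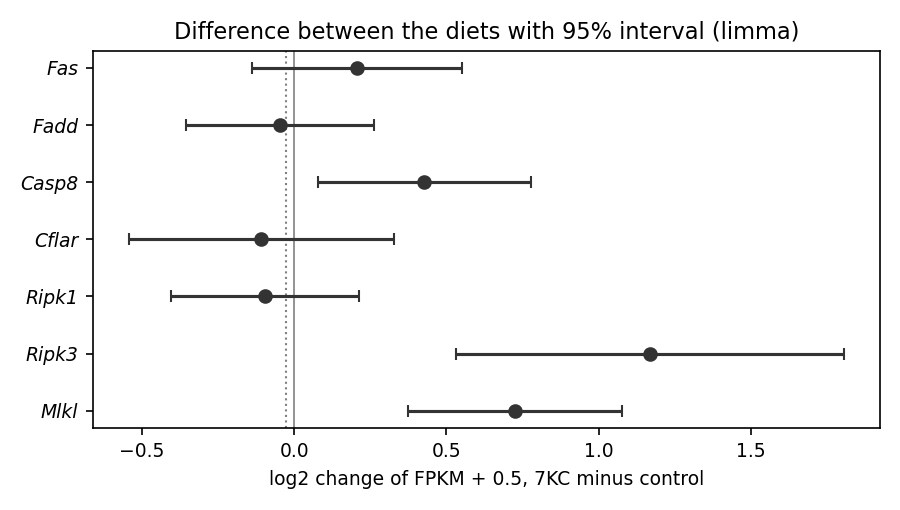
Log2 change of FPKM + 0.5, 7KC minus control, for the 7 genes, with the 95% interval from limma before adjustment. The solid line is 0 and the dotted line is the median of all tested genes, -0.03. The intervals of Mlkl, Ripk3 and Casp8 lie above 0 and those of the other genes span it.

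In order of mean level, the control group ran Cflar, Fas, Casp8, Ripk1, Fadd, Mlkl and Ripk3. In the 7KC group Mlkl stood above Fadd and the order was otherwise the same. The control libraries of neighbours in this order did not overlap. In the 7KC group those of Cflar, Fas and Casp8 did, with ranges of 18.02 to 23.3, 16.2 to 19.4 and 14.3 to 17.6 FPKM.

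The necroptotic kinases were then compared with each other. The ratio of Ripk3 to Ripk1 within a library was 0.148 and 0.154 in the control group and 0.322 and 0.592 in the 7KC group. Both 7KC libraries were above both controls, and the log2 difference was 1.53 (exact 2-sided permutation p 0.333). The ratio of Mlkl to Ripk3 was 3.69 and 2.71 in the control group and 2.78 and 1.48 in the 7KC group. Here the groups overlapped, and the log2 difference was -0.64 (exact 2-sided permutation p 0.667). Its size rested on single libraries, at -0.19 without 7KC replicate 2, -1.10 without 7KC replicate 1 and -0.42 without control replicate 1.

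**Figure D3:**
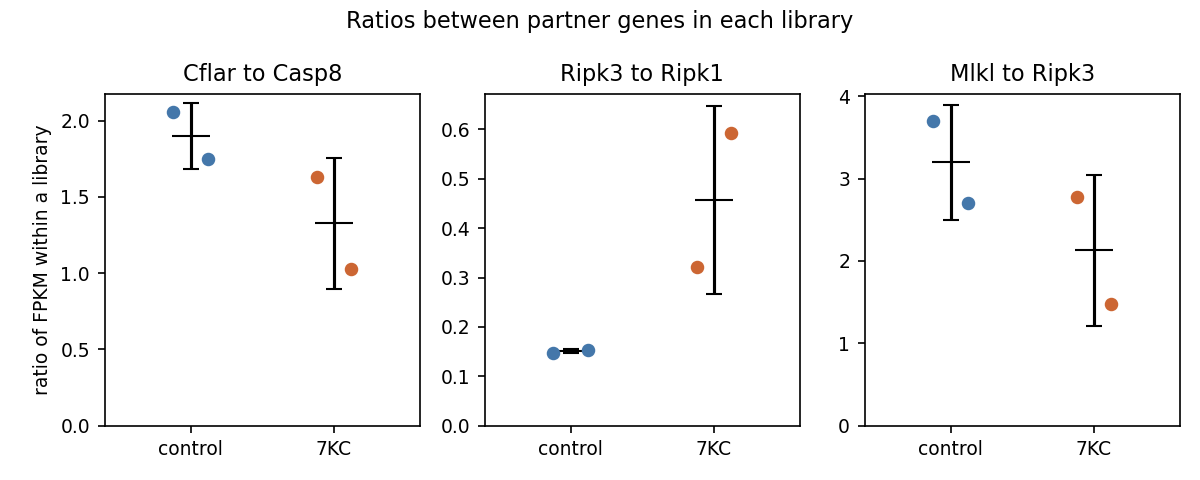
Ratio of FPKM of partner genes within each library (vertical axes, from 0), for Cflar to Casp8, Ripk3 to Ripk1 and Mlkl to Ripk3. Points are libraries, with the group mean and SD. The groups do not overlap in the first and second ratio and overlap in the third.

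Most markers of monocytes and recruited macrophages and of T and NK cells were higher in the same libraries. In bulk liver, more cells of a type and more RNA per cell cannot be told apart. The 9 markers of monocytes and recruited macrophages summed to 610.3 and 365 FPKM in control livers and to 1128 and 1803 FPKM in 7KC livers. In 6 of the 9, such as Ly6c2, Ccr2, Itgam and Lyz2, both 7KC libraries were above both controls. In Cx3cr1, Trem2 and Gpnmb the groups overlapped. T and NK cell markers summed to 25.4 and 16.1 FPKM and to 59.5 and 53.0 FPKM, with all 11 tested markers above. Of these, Klrb1c, at 0.336 and 0.358 FPKM in control livers, reached the mean of 0.5 FPKM needed for testing only through its 7KC values. Resident Kupffer cell markers were mixed, with 3 of 7 above (Timd4, Cd5l and Marco) and Vsig4 below. Their sum, 313 and 318 FPKM in control livers and 364 and 550 FPKM in 7KC livers, is largely that of Cd5l and Marco. Hepatocyte markers summed to 70681 and 58481 FPKM and to 50159 and 37741 FPKM, with 7 of 10 below. Over all tested genes, 25.1% were above and 27.4% below. No marker in these 4 lists passed limma over all genes, and none was at 0 in any library. Of the other leukocyte lists, B cells had 2 of 4 tested markers above and neutrophils 1 of 3, with 0 below in each.

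Set against the summed FPKM of the monocyte and macrophage markers, Ripk3 was at 2.07 and 4.01 per 1000 in control livers and at 2.5 and 2.65 per 1000 in 7KC livers, so the groups overlapped. Lyz2 alone holds 87.8% to 88.3% of that sum, and against the other 8 markers the groups overlapped as well, at 17.6 and 33.3 against 21.3 and 21.7 per 1000. Against the T and NK cell sum they overlapped too, and against the Kupffer cell sum Ripk3 was higher in both 7KC libraries, at 7.75 and 8.67 against 4.04 and 4.6 per 1000. Mlkl per 1000 of the monocyte and macrophage sum was lower in both 7KC libraries, at 6.95 and 3.91 against 7.65 and 10.9. Casp8 and Fas were lower on this scale as well, and all 3 genes were also lower with Lyz2 left out. Per 1000 of the T and NK cell sum all 3 were lower in both 7KC libraries too, with Mlkl at 132 and 133 against 184 and 246. Against the Kupffer cell sum the groups overlapped in each of the 3, with Mlkl at 14.9 and 12.5 in control livers and 21.6 and 12.8 per 1000 in 7KC livers. The part of these cells in the results for the 7 genes was not tested.

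**Figure D4:**
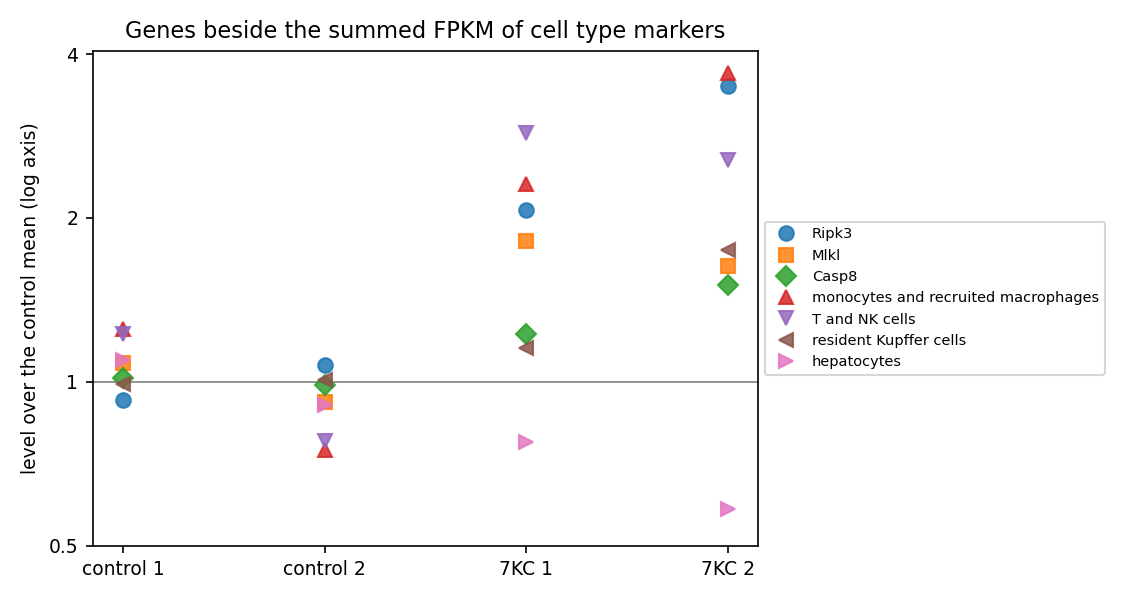
Level in each library over the mean of the control libraries (log axis) for Ripk3, Mlkl and Casp8 and for the summed FPKM of 4 lists of cell type markers. In 7KC replicates 1 and 2 Ripk3 stands at 2.07 and 3.50 times the control mean, Mlkl at 1.82 and 1.64 and Casp8 at 1.22 and 1.51. The monocyte and macrophage sum stands at 2.31 and 3.70 and the T and NK cell sum at 2.87 and 2.55. The Kupffer cell sum stands at 1.15 and 1.74 and the hepatocyte sum at 0.777 and 0.584.

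The wider pathway was described with lists of genes around the 7. Among death ligands and the other death receptors, 10 of 17 genes passed the filter on low values. The 7KC libraries were above both controls in all 10, beside 25.1% of all tested genes, with a median log2 change of 0.56. None of the 10 passed limma over all genes. Fasl and Tnfrsf23, at control means of 0.348 and 0.373 FPKM, passed the filter only through their 7KC values. Among genes below the filter, Edar was lower in 7KC and Tnfrsf22 and Tnfrsf25 overlapped, while Lta, Tnfrsf10b, Tnfsf14 and Tnfsf15 were above. The largest differences were in the ligands. Tnf, the ligand of the TNF receptor, had 2.13 and 0.826 FPKM in control livers and 5.74 and 4.10 FPKM in 7KC livers (log2 change 1.52, SE 0.36, limma adjusted p 0.127). Ltb, a subunit of lymphotoxin, had a log2 change of 1.20 (adjusted p 0.102), and Tnfsf10, which encodes the death ligand TRAIL, of 1.001 (adjusted p 0.129). The ligand of Fas itself, Fasl, named here after its values were seen, had 0.404 and 0.292 FPKM in control livers and 0.692 and 0.794 FPKM in 7KC livers. The main TNF receptor, Tnfrsf1a, also named after the fact, had 59.4 to 61.4 FPKM in control livers and 63.6 to 65.5 FPKM in 7KC livers.

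The list for complex I, adaptors, ubiquitin enzymes and kinases that regulate Ripk1 at the TNF receptor, had 24 genes tested and a median log2 change of 0.14. In 12 both 7KC libraries were above both controls and in 1 below, beside 25.1% and 27.4% of all tested genes. None of the list passed the threshold. With every library rescaled to the same sum of FPKM, the counts of the list were 22 and 0 and its median 0.34, while the median of all genes moved to 0.17. On that scale 5719 of the 12299 tested genes were above and 967 below. The largest differences lay in Tnfaip3, Tnip1 and Birc3. Tnfaip3, the ubiquitin-editing protein A20, had 4.003 and 2.98 FPKM in control livers and 8.43 and 8.98 FPKM in 7KC livers (log2 change 1.22, SE 0.16, limma adjusted p 0.0534). Its partner Tnip1 had a log2 change of 0.94 (adjusted p 0.0606), and the ubiquitin ligase gene Birc3 of 0.70 (adjusted p 0.0619).

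Of the 11 genes described for other entries to Ripk3, 1 rose past the threshold over all genes. Zbp1, a nucleic acid sensor that binds Ripk3 without a death receptor, rose from 10.4 and 8.01 FPKM in control livers to 51.5 and 41.2 FPKM in 7KC livers (log2 change 2.27, SE 0.18, limma adjusted p 0.0244). Irf1, an interferon-induced transcription factor, had a log2 change of 1.15 (adjusted p 0.0965), and Tlr4, a receptor for bacterial lipopolysaccharide, of 0.80 (adjusted p 0.288). The list had a median of 0.41, with 9 genes above and 0 below, beside 25.1% and 27.4% of all tested genes. The call of Zbp1 was lost without the filter on low values (adjusted p 0.119), with the replicate number as a block (0.111), without 7KC replicate 1 (0.146) and without 7KC replicate 2 (0.142).

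Genes that modulate Ripk3 or Mlkl were divided. Of 18 tested, both 7KC libraries were above both controls in 4 and below them in 9, beside 25.1% and 27.4% of all tested genes. The median log2 change of the list was -0.09, and none of the 18 passed the threshold. Hsp90aa1, a chaperone of Ripk3 and Mlkl, had 110.4 and 105 FPKM in control livers and 83.0 and 74.2 FPKM in 7KC livers (log2 change -0.45, SE 0.12, limma adjusted p 0.151). Ppm1b, a phosphatase acting on Ripk3, had a log2 change of -0.37 (adjusted p 0.294), and the mitotic kinase gene Aurka of 0.79 (adjusted p 0.0926). Rescaling the libraries to the same sum turned the median of this list to 0.12 and the counts to 9 above and 2 below. On that scale the median of all tested genes was 0.17, with 5719 of 12299 above and 967 below. The list median thus stayed below that of all genes. With single libraries left out, the list median ran from -0.13 (without control replicate 2) to 0.0021 (without control replicate 1).

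The apoptotic arm downstream of Casp8 was mixed. Of 16 caspase and apoptosome genes, 7 were above and 6 below, beside 25.1% and 27.4% of all tested genes. Their median log2 change was -0.04. Birc5, an inhibitor of apoptosis that also serves cell division, had 2.57 and 1.23 FPKM in control livers and 7.04 and 7.26 FPKM in 7KC livers (log2 change 1.73, SE 0.28, limma adjusted p 0.067). Apaf1, the scaffold of the apoptosome, had a log2 change of 0.82 (adjusted p 0.18) and Casp2 of 0.47 (adjusted p 0.209). None of the 16 passed the threshold. Rescaling to the same sum turned their median to 0.16, with 9 above and 3 below. That was close to the median of all tested genes on that scale, 0.17, with 5719 of 12299 above and 967 below. Single libraries left out moved the list median between -0.035 (without 7KC replicate 1) and 0.032 (without control replicate 1). In the BCL2 family, 10 of 17 tested genes were above and 4 below, with a median of 0.14 (0.28 without control replicate 1) and none past the threshold. Rescaled to the same sum, 11 were above and 1 below, with a median of 0.34, against the all-gene values just given. The largest differences were in the anti-apoptotic Bcl2a1b, Bcl2a1a and Bcl2a1d, with log2 changes of 1.51, 1.36 and 1.20. These near-identical copies can exchange reads, so their single values are uncertain.

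Pyroptosis, the lytic death run by inflammatory caspases and gasdermins, had 13 genes tested, with a median log2 change of 0.74. Of the 13, 12 were above and 0 below, beside 25.1% and 27.4% of all tested genes. Of the 12, Nlrc4, at a control mean of 0.412 FPKM, passed the filter on low values only through its 7KC values. One gene passed the threshold: Pycard, the inflammasome adaptor, rose from 2.08 and 1.87 FPKM to 5.77 and 5.61 FPKM (log2 change 1.32, SE 0.13, limma adjusted p 0.0336). This call was lost without the filter on low values (adjusted p 0.124), with the replicate number as a block (0.165), under quantile normalization (0.0514), and without control replicate 2 (0.0734), 7KC replicate 1 (0.151) or 7KC replicate 2 (0.247). The sensors Nlrp3 and Aim2 had log2 changes of 1.24 and 1.16 (adjusted p 0.0596 for each). The median of this list was 0.44 without 7KC replicate 2 and 1.01 without 7KC replicate 1.

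**Figure D5:**
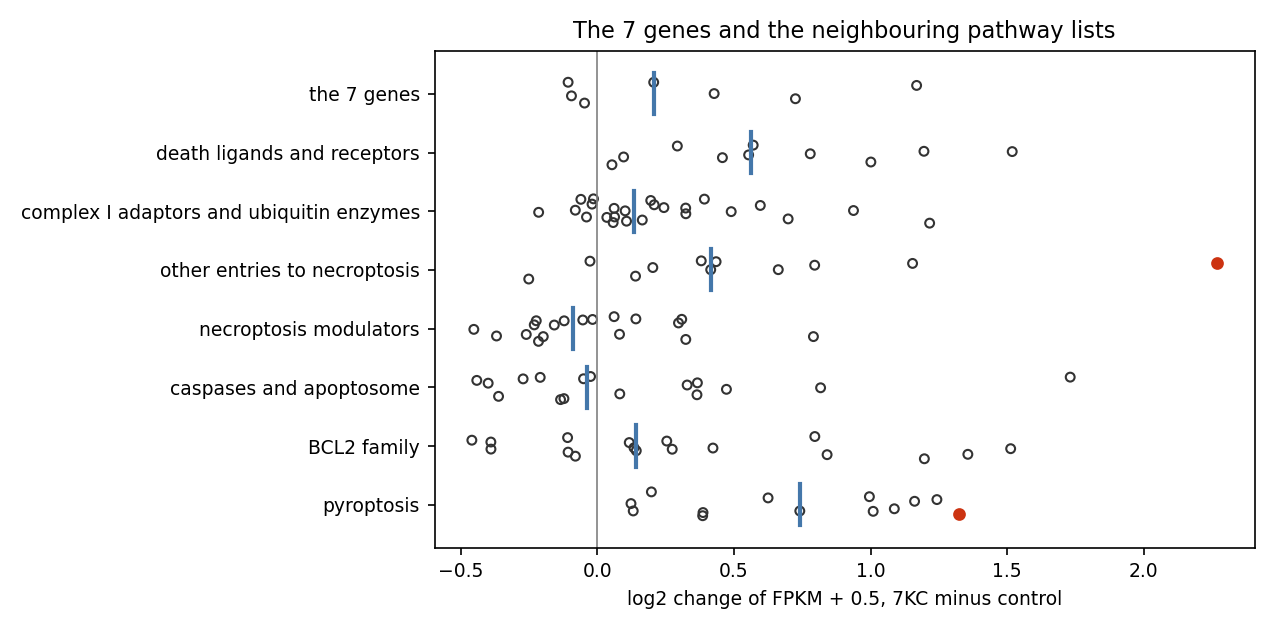
Log2 change of FPKM + 0.5, 7KC minus control, for each tested gene of the 7 and of the 7 neighbouring lists. Open points did not pass limma over all genes, filled points did, and the vertical bar is the median of the list. The filled points are Zbp1 among other entries to necroptosis and Pycard in pyroptosis.

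Likeness was measured as the Euclidean distance between log2(FPKM + 0.5) values over the 4 libraries, each gene centred on its own mean, among genes averaging at least 1 FPKM. Nearest to Ripk3 were Il18bp, Trpm2 and Cd300lf, at distances of 0.0824, 0.102 and 0.106. Nearest to Mlkl were Arid5a, Actb and Irf5, at 0.0669, 0.0672 and 0.0709, and nearest to Casp8 were Camk2d, Bcl2l11 and Abcc4, at 0.0261, 0.0518 and 0.0529. Bcl2l11 encodes the pro-apoptotic protein Bim. The distance between Ripk3 and Mlkl themselves was 0.769, and the closest pair of the 7 was Fadd with Ripk1 at 0.127. With 4 libraries and 11240 genes to choose from, close profiles are a description only.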

How the data were processed

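Liver libraries were made with a stranded messenger RNA kit. Per the labels, the authors mapped reads to mm10 with TopHat2 2.1.1 and Bowtie2 2.2.8, beside SAMtools 0.1.18 and Cuffdiff 2.2.1. The methods of the study name other versions of the mapping tools and, for FPKM, Cufflinks. The authors deposited 1 FPKM value per symbol and library. The annotation and the settings for strand and shared reads are not given in the sources used here. The sums of FPKM ran from 557138 to 685028, and rescaling by the median ratio left the values nearly as deposited, so rescaling to the same sum departs from the scale of the files.

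Values were tested as log2(FPKM + 0.5), a scale that understates changes of low genes. limma 3.58.1 (R 4.3.3) was fitted to the 12299 genes averaging at least 0.5 FPKM, with a variance prior following expression and the group from the treatment labels as the only term (2 residual and 3.27 prior degrees of freedom), adjusted by Benjamini-Hochberg, after the script was tested on simulated data. Alternatives changed the pseudocount, filter, prior, scaling, replicate block and libraries.

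Depth was set, from single-transcript genes of GENCODE M21, where 68.8% to 69.8% of values of up to 10 reads came within 0.1 of a whole read (median over the depths tried 13.8% to 14.5%). Reads are approximate and cover counting error only. Promoters of all 7 members were found in RefSeq (GRCm38.p6). Besides the members, the text names from each list the genes past the threshold and the 3 largest differences without overlap, and the 3 genes nearest to a member. Some further genes are named for their place at the filter on low values, after their values were seen. The members and lists were chosen with earlier results of these data known. One gene of the list on other entries to necroptosis is not reported here. Symbols without a row were Gsdme (present as Dfna5), Trac and Ly6g. Further marker lists, for B cells, neutrophils, endothelial cells, stellate cells and cholangiocytes, had median log2 changes of 0.49, 0.51, -0.04, 0.01 and 0.19, with no marker past the threshold.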

Additional observations from a re-analysis of the deposited data

How the results depend on the processing

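The count of 0 of 7 genes past the threshold held in every alternative but rescaling to the same sum, which gave 1 (Mlkl), and at a limma unadjusted p under 0.05 the count was 2 to 4. Over all genes 62 passed, against 115 with a pseudocount of 1 FPKM, 1 (lower in 7KC) without a filter, 40 without a trend in the prior variance, 409 when rescaled to the same sum, and 4 to 458 when 1 library was left out. With the replicate number as a block 0 genes passed limma (1851 at an unadjusted p under 0.05). Same-numbered libraries deviated in opposite directions (correlation -0.141), and crossed pairs, chosen after seeing the data, gave 588, again with 0 of the 7. Rescaling to the same sum moved the median of all genes to 0.17 and that of the 7 genes to 0.41. On that scale Fadd, Cflar and Ripk1 turned to 0.15, 0.095 and 0.10, all under the shift. With a library left out, the median of the 7 was 0.080 to 0.28, and Fadd and Cflar, whose libraries overlap, ran from -0.11 to 0.010 and from -0.29 to 0.072. Under quantile normalization both 7KC libraries lay below both controls in Fadd. The within-library ratios kept their direction in the alternatives run.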
